A study of Mus musculus with 12 samples.

Results

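The genes described here are 10 imprinted genes, H19, Igf2, Peg3, Mest, Dlk1, Meg3, Cdkn1c, Snrpn, Plagl1 and Grb10, chosen by name from the gene expression table of 20788 genes. A row was matched for 8 of the 10 by symbol and by numeric gene ID, and H19 and Meg3 were not analysed here. RNA-seq was done on testes of F1 male mice in 4 groups of 3 libraries each. The strain is given as "IRC mouse" in the labels and as ICR in the methods. Per the methods, the mice were 8 weeks old and were the offspring of males whose testes had been injected with lentivirus at 4 weeks of age and of untreated females, whereas the design text of the series speaks of the F1 testes as the ones transfected. The 3NC group descended from males given the LV3 vector, the knockdown group from males given LV3 with a pool of short hairpin RNAs against lncRNA5251, the 5NC group from males given the LV5 vector, and the overexpression group from males given LV5 with lncRNA5251. As the methods describe it, all 4 groups involve a lentivirus, and no group without virus enters the comparisons. Whether the 3 libraries in each group are from different mice is not in the labels, so the p-values cover the spread between libraries, which may be technical. The lncRNA5251 transcript itself was not analysed here, and its level does not check the labels.

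Genomic imprinting is the expression of a gene mainly from the copy inherited from one parent, which is set by DNA methylation marks laid down in the germ line. In the male germ line the marks of both parents are erased and paternal marks are put in place before spermatogonia enter meiosis, so testis holds germ cells with paternal marks beside somatic Sertoli, Leydig, myoid and vascular cells with the marks of both parents. Many imprinted genes act on fetal growth and are turned down after birth. The paternally expressed genes here include Igf2 (a growth factor), Peg3 (a zinc finger protein), Mest (a hydrolase-like protein), Dlk1 (a Notch-related ligand made in many precursor cells and in Leydig cells), Snrpn (a spliceosomal protein) and Plagl1 (a zinc finger transcription factor). The maternally expressed ones include Cdkn1c (p57Kip2, an inhibitor of cyclin-dependent kinases), Grb10 (an adaptor that binds the insulin and IGF1 receptors, with a paternal transcript in brain), and the noncoding H19 and Meg3. The reads do not separate the alleles, so only the total level of each gene was measured.

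In the RefSeq annotation of GRCm38.p6, the build also called mm10, 5 of the genes lie on chromosome 7. Peg3 is at chr7:6703892-6730462, Snrpn at chr7:59982495-60450177, H19 at chr7:142575530-142578146, Igf2 at chr7:142650768-142666816 and Cdkn1c at chr7:143458339-143461059, all on the minus strand. H19 and Igf2 are 72.6 kb apart, and Cdkn1c lies 792 kb from Igf2. Mest is at chr6:30733506-30748466, Plagl1 at chr10:13090832-13131694, Dlk1 at chr12:109452485-109463336 and Meg3 at chr12:109540996-109571729, on the plus strand, and Grb10 at chr11:11930499-12037428 on the minus strand. Dlk1 and Meg3 are 77.7 kb apart. H19 and Meg3 are annotated as lncRNA and the other 8 as protein coding. Antisense or overlapping models in GENCODE vM21 cross H19, Igf2, Mest, Meg3, Cdkn1c, Snrpn and Plagl1, and the sources used here do not state whether strand was used in counting, so reads of such pairs cannot be told apart. The overlap of Mest with the opposite-strand Copg2 is 913 bases long.

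RefSeq start-site windows of 300 bases (250 before and 50 after the start, GRCm38.p6) matched 8 of the 10 genes and gave 18 windows. The windows held 1 to 45 CG dinucleotides, 11 of them more than the median of 7 over all 32851 windows of the table. The hexamer TGCCGC, which is the core recognised by the imprint-maintaining zinc finger protein ZFP57 when methylated, was searched on both strands. It was found in 7 of the 18 windows, at least 1 each for Igf2, Mest, Meg3, Snrpn, Plagl1 and Grb10, against 11.6% of all windows. The hexamer itself holds a CG, and the share over all windows was not matched for CG content. A pair of the Mest windows share nearly all of their bases, so these are not independent, and a match of letters is not a binding site. Shown here, with CG dinucleotides in capitals, are windows of Snrpn and Grb10, the genes whose overexpression and 5NC libraries did not overlap. The Snrpn window is the one with the most CG of its 4, and the Grb10 pair shows starts that differ in their number of CG.
Snrpn start, chr7:60005150-60005449, minus strand, 7 CG: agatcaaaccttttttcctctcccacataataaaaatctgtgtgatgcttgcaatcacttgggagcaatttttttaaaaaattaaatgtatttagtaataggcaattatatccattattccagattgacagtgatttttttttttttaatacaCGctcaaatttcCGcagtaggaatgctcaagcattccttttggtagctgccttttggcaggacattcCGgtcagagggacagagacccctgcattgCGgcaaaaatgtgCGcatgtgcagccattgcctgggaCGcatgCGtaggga
Grb10 start, chr11:12037371-12037670, minus strand, 45 CG: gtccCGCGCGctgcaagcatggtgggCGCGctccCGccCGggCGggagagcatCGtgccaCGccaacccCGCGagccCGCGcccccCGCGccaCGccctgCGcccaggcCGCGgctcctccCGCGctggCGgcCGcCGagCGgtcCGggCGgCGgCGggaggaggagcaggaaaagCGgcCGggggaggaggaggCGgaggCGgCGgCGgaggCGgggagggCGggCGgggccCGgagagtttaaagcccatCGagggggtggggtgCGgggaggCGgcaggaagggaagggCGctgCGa
Grb10 start, chr11:12027922-12028221, minus strand, 9 CG: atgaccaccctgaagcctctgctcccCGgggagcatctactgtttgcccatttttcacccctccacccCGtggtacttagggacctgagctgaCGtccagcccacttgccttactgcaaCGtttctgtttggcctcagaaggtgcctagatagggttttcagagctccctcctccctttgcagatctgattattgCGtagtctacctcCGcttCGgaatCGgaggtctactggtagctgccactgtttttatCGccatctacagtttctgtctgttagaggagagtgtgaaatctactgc
The upstream Grb10 window held more CG than 98.1% of all windows, whereas the downstream Grb10 window was above 54.2% and the Snrpn window above 47.9% of them. The deposited values are per gene, so the use of each start was not measured.

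Each library held 12719699 to 15771655 estimated reads. Of the 20788 genes, 16388 passed a filter on low counts and were tested, and all 8 imprinted genes with a row passed it. The libraries 3NC replicate 2 and knockdown replicate 1 stood apart in immune genes, and 3NC replicate 2 also in fibroblast genes. Ptprc, the pan-leukocyte antigen CD45, chosen after its values were seen, was at 94.8 and 71.7 CPM (reads scaled to library depth by TMM) in these libraries and at 2.12 to 6.91 CPM in the other 10. Summed over 7 epididymal genes, the level was 34.6 to 81.5 CPM in 3NC against 0.798 to 18.97 CPM in knockdown, and 14.1 to 310.7 CPM in 5NC against 0.921 to 1.27 CPM in overexpression, so it did not overlap in either pair. Among all genes tested, 11.3% and 21.3% did not overlap in these pairs. Of the 7, 4 were tested, and they could pass the filter mainly through the control libraries where they were high. Their direction was thus largely set by the filter. These 4 had an unadjusted p below 0.05 in edgeR and were lower in both comparisons, against 5.64% and 11.9% of all genes. None had an adjusted p below 0.05, and genes of 1 tissue are not separate support. In whole testis, fewer cells of a type and less RNA per cell cannot be told apart.

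Levels can be compared between genes only per length, and for this the authors' FPKM (fragments per unit of length and of depth) were used. Snrpn, Grb10 and Cdkn1c had the highest levels and Dlk1 the lowest. Snrpn averaged 6.60 ± 0.627 FPKM (SD over 12 libraries), Grb10 6.36 ± 0.650 FPKM and Cdkn1c 5.57 ± 0.718 FPKM. These 3 lay above the median gene of the table, which was at 3.30 FPKM, and the other 5 lay below it. Igf2 averaged 2.27 ± 0.270 FPKM, Peg3 1.19 ± 0.158 FPKM and Mest 1.03 ± 0.275 FPKM. Plagl1 averaged 0.783 ± 0.172 FPKM and Dlk1 0.422 ± 0.190 FPKM. In rank, Snrpn lay above 61.0% of all genes of the table, Igf2 above 44.6% and Dlk1 above 25.5%.

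The order held in every library at only some steps. Cdkn1c was above Igf2 and Igf2 was above Peg3 in 12 of 12 libraries, and in both pairs the ranges did not overlap. The other neighbours overlapped. Snrpn was above Grb10 in 8 of 12 libraries, Grb10 above Cdkn1c in 10, Peg3 above Mest in 9, Mest above Plagl1 in 9 and Plagl1 above Dlk1 in 11. Snrpn, Grb10 and Cdkn1c thus formed an upper set, Igf2 stood alone, and Peg3, Mest, Plagl1 and Dlk1 followed each other within their spread.

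**Figure D1:**
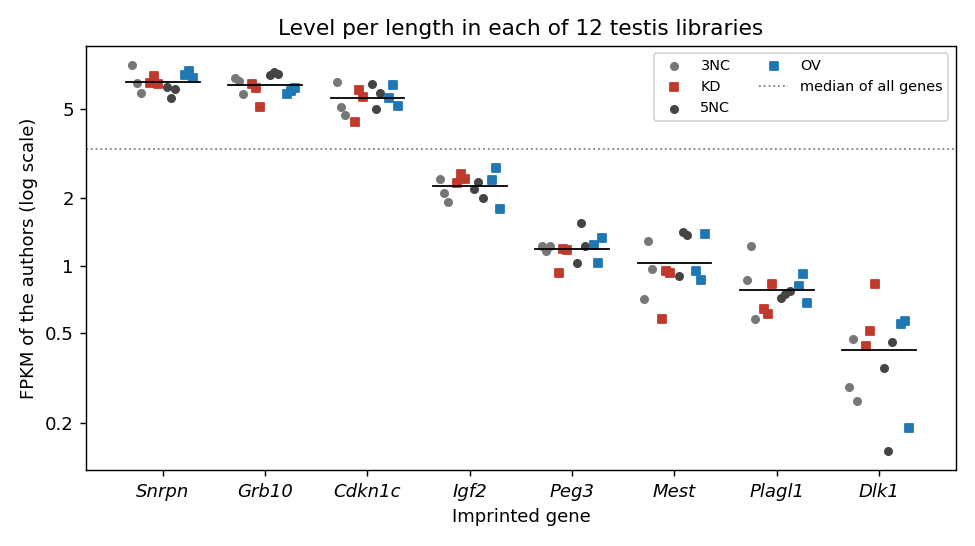
FPKM of the authors on a log axis for the 8 imprinted genes with a row, 12 points per gene coloured by group (KD, knockdown; OV, overexpression), with a line at the mean over libraries and a dotted line at the median gene of the table (3.30 FPKM). Snrpn, Grb10 and Cdkn1c lie above the dotted line in every library, and Igf2 sits apart from the genes on both sides of it.

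The depth behind these levels differed between genes. Grb10 had 384 to 552 estimated reads per library and Peg3 128 to 196, whereas Mest had 22.01 to 47.07 and Dlk1 3 to 18. The highest library was 1.39 times the lowest for Snrpn and 1.42 times for Grb10, and 5.53 times for Dlk1, in FPKM. The FPKM and the reads did not move in fixed proportion for every gene. The length implied by reads and FPKM stayed within 1.01 to 1.07 times of itself across libraries for Peg3, Mest, Cdkn1c, Snrpn, Plagl1 and Grb10, but varied 1.19 times for Igf2 and 1.66 times for Dlk1. Comparisons between groups were therefore made on the reads, and FPKM were used as an alternative.

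Among the paternally expressed growth genes, Igf2 had overlapping levels in all groups. It was at 7.68, 7.27 and 7.23 CPM in the 3NC libraries and at 7.02, 8.71 and 8.98 CPM in the knockdown libraries. It was at 6.86, 8.09 and 7.01 CPM in the 5NC libraries and at 8.88, 9.79 and 6.43 CPM in the overexpression libraries. The ranges overlapped in both pairs, and the highest and the lowest value of all were both found in the overexpression group. The log2 fold change was 0.16 ± 0.17 (SE) for knockdown against 3NC, with adjusted p = 0.814 in edgeR's quasi-likelihood test, and 0.19 ± 0.17 for overexpression against 5NC, with adjusted p = 0.729.

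Peg3, whose mutation in mice affects maternal behaviour and growth, was at 11.0, 9.76 and 11.3 CPM in the 3NC libraries and at 8.09, 10.8 and 10.7 CPM in the knockdown libraries. In the LV5 pair, it was at 8.98, 13.8 and 10.4 CPM in 5NC and at 11.2, 9.12 and 11.9 CPM in overexpression. The 5NC group alone spanned all the other Peg3 values but 1, that of knockdown replicate 1. Its log2 fold changes were -0.11 ± 0.18 in the knockdown and -0.04 ± 0.18 in the overexpression comparison.

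Mest had few reads and a wide spread. It was at 1.72, 2.92 and 2.36 CPM in the 3NC libraries and at 1.39, 2.39 and 2.30 CPM in the knockdown libraries. The 5NC libraries were at 2.12, 3.31 and 3.15 CPM and the overexpression libraries at 2.37, 2.13 and 3.17 CPM. The groups overlapped in both pairs, and knockdown replicate 1 was the lowest of the 12 for Mest and for Peg3. The log2 fold changes were -0.21 ± 0.30 in the knockdown and -0.16 ± 0.30 in the overexpression comparison. Without knockdown replicate 1, the Mest difference between knockdown and 3NC was 0.00 and that of Peg3 was 0.01 on the log2 scale.

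Plagl1, which regulates other imprinted genes in the fetus, was at 4.43, 5.90 and 3.11 CPM in 3NC and at 3.22, 3.19 and 4.39 CPM in knockdown. The 3NC libraries spanned every other value of Plagl1, so no group stood outside them. In the LV5 pair it was at 3.62, 3.73 and 3.86 CPM in 5NC and at 4.21, 4.795 and 3.49 CPM in overexpression. Its log2 fold change was -0.32 ± 0.24 in the knockdown comparison (adjusted p = 0.766, edgeR) and 0.16 ± 0.25 in the overexpression comparison (adjusted p = 0.871). With both libraries high in Ptprc left out, the first was 0.01.

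Dlk1 was at 0.463, 0.684 and 0.540 CPM in 3NC and at 0.569, 0.731 and 1.22 CPM in knockdown. It was at 0.499, 0.281 and 0.572 CPM in 5NC and at 0.855, 0.799 and 0.238 CPM in overexpression. The groups overlapped in both pairs. The log2 fold changes were 0.56 ± 0.47 in the knockdown and 0.50 ± 0.50 in the overexpression comparison, with the widest intervals of the 8 genes, 0.720-fold to 3.03-fold and 0.660-fold to 3.01-fold. Single libraries weighed on both values: the first was 0.20 without knockdown replicate 3, and the second was 0.25 without 5NC replicate 2, 0.23 and 0.31 without overexpression replicates 1 and 2, and 0.87 without replicate 3.

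Snrpn was the one gene of the 8 with an unadjusted p below 0.05 in a comparison. It was at 11.4, 9.99 and 11.0 CPM in the 5NC libraries and at 13.2, 13.7 and 12.6 CPM in the overexpression libraries, so every overexpression library was above every 5NC library. The log2 fold change was 0.29 ± 0.13, a 1.22-fold difference with a 95% interval of 1.003 to 1.49, and it did not pass (adjusted p = 0.412, edgeR). In the LV3 pair Snrpn was at 14.5, 11.2 and 11.3 CPM in 3NC and at 11.8, 13.1 and 12.2 CPM in knockdown, with a log2 fold change of 0.00 ± 0.13. The 3NC replicate 1 was the highest of all 12 libraries for Snrpn. Its reads were partly shared with Snurf, which is transcribed from the same start region on the same strand. The fractional estimates of Snrpn and Snurf summed to whole reads in every library, 152 to 238 in all. Summed in this way, which was chosen after the values were seen, the level was 11.4 ± 0.618 CPM in 5NC and 13.8 ± 0.543 CPM in overexpression (SD, n = 3), again without overlap.

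Of the maternally expressed genes, Cdkn1c did not differ in any comparison beyond its spread. It was at 11.9, 8.64 and 8.85 CPM in 3NC and at 7.71, 11.2 and 10.5 CPM in knockdown. It was at 11.4, 8.65 and 10.4 CPM in 5NC and at 10.3, 11.7 and 9.36 CPM in overexpression. The groups overlapped throughout, and knockdown replicate 1 held the lowest value again. The log2 fold changes were 0.00 ± 0.19 in the knockdown and 0.04 ± 0.19 in the overexpression comparison, with intervals of 0.752-fold to 1.33-fold and 0.774-fold to 1.37-fold.

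Grb10 had the most reads and the narrowest intervals. It was at 34.4, 34.6 and 34.1 CPM in the 5NC libraries and at 29.3, 29.97 and 30.8 CPM in the overexpression libraries, and these did not overlap. It was at 34.0, 31.2 and 29.9 CPM in 3NC and at 30.9, 31.1 and 25.9 CPM in knockdown. The 3 libraries of 5NC were above all the other 9, by little in the case of 3NC replicate 1. The log2 fold change of overexpression against 5NC was -0.20 ± 0.09, a ratio of 0.873 with a 95% interval of 0.759 to 1.005, which did not pass (adjusted p = 0.434, edgeR). For knockdown against 3NC it was -0.11 ± 0.09 (adjusted p = 0.770).

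**Figure D2:**
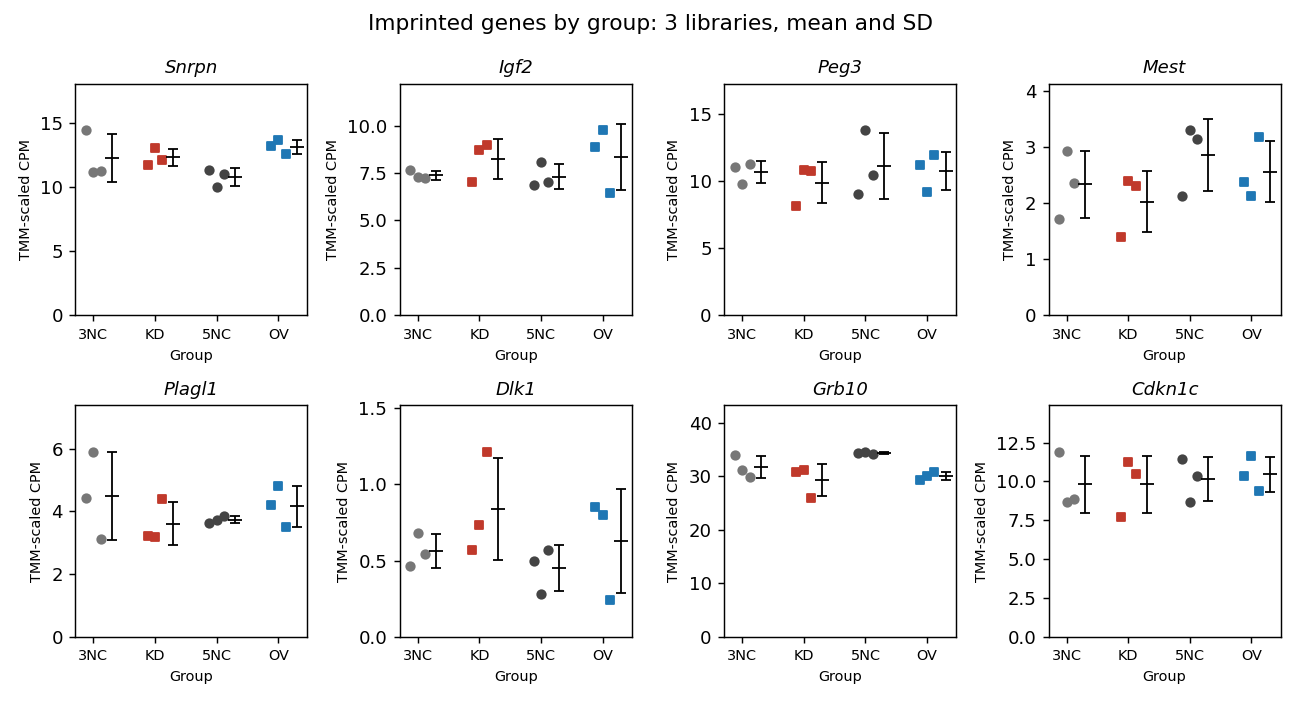
TMM-scaled CPM of the 8 imprinted genes in each library, by group (KD, knockdown; OV, overexpression; 3 points per group), with the mean and SD as a bar beside them and axes that start at 0. In Snrpn and Grb10 the 5NC and overexpression points do not overlap, whereas in the other 6 genes they do.

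None of the 8 genes passed an adjusted p of 0.05 in edgeR in any of the comparisons. In knockdown against 3NC, 0% of the 16388 genes tested passed and 5.64% had an unadjusted p below 0.05, against 0 of the 8 imprinted genes at either level. In overexpression against 5NC, 0.311% passed and 11.9% had an unadjusted p below 0.05, against 0 and 1 of the 8. The groups of 2 of the 8 did not overlap in that comparison, Snrpn and Grb10, where 21.3% of all genes did not. Between knockdown and 3NC no imprinted gene was without overlap, against 11.3% of all genes. DESeq2 and limma on FPKM also passed 0 of the 8 in both comparisons. The smallest adjusted p among the 8 in edgeR was 0.766 in the knockdown comparison and 0.412 in the overexpression comparison.

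The 2 vector controls, in which lncRNA5251 was not altered, were compared to see how large a difference arises between groups of this kind. In 5NC against 3NC, 0.128% of the genes tested passed and 10.8% had an unadjusted p below 0.05, against 0 and 0 of the 8. Grb10 was the one imprinted gene without overlap there, where 13% of all genes did not overlap. Its log2 fold change was 0.12 ± 0.09, and with 1 library left out it ranged from 0.09 to 0.18 (without 3NC replicate 1). Snrpn differed by -0.19 ± 0.13, Mest by 0.29 ± 0.30, Plagl1 by -0.26 ± 0.24 and Dlk1 by -0.31 ± 0.50 on the log2 scale. Each of these moved with 1 library left out. Snrpn was at -0.05 and Mest at 0.12 without 3NC replicate 1. Plagl1 was at -0.02 without 3NC replicate 2 and Dlk1 at -0.08 without 5NC replicate 2. In the other direction, Snrpn was at -0.26 and Mest at 0.48 without 3NC replicate 2. Plagl1 was at -0.46 without 3NC replicate 3 and Dlk1 at -0.52 without 5NC replicate 3. Igf2, Peg3 and Cdkn1c differed by -0.01, 0.05 and 0.05. For Snrpn the 5NC and 3NC libraries overlapped. Both comparisons of 5NC share its libraries.

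An interaction term tested, per gene, whether the change in knockdown and the change in overexpression were unequal. It passed in 0.0244% of all genes, with 4.63% at an unadjusted p below 0.05, and in 0 of the 8 at either level. That of Plagl1 was -0.47 ± 0.35 on the log2 scale, and -0.23 without 3NC replicate 2. That of Snrpn was -0.29 ± 0.18, and -0.15 without 3NC replicate 1. In the test of any difference among the 4 groups, 0.238% of genes passed and 11.4% had an unadjusted p below 0.05, against 0 and 0 of the 8, where the smallest p was that of Grb10 (adjusted p = 0.535, edgeR).

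The intervals show which differences these libraries could have missed. Over the 7 genes other than Dlk1, the 95% intervals reached from 0.549-fold (Mest) to 1.45-fold (Igf2) in the knockdown comparison and from 0.569-fold (Mest) to 1.62-fold (Plagl1) in the overexpression comparison. A p that misses the threshold does not show that the groups were alike within these bounds. The median log2 fold change of the 8 was -0.06 in the knockdown comparison, where that of all genes tested was -0.02, and 0.10 in the overexpression comparison, where it was -0.01.

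**Figure D3:**
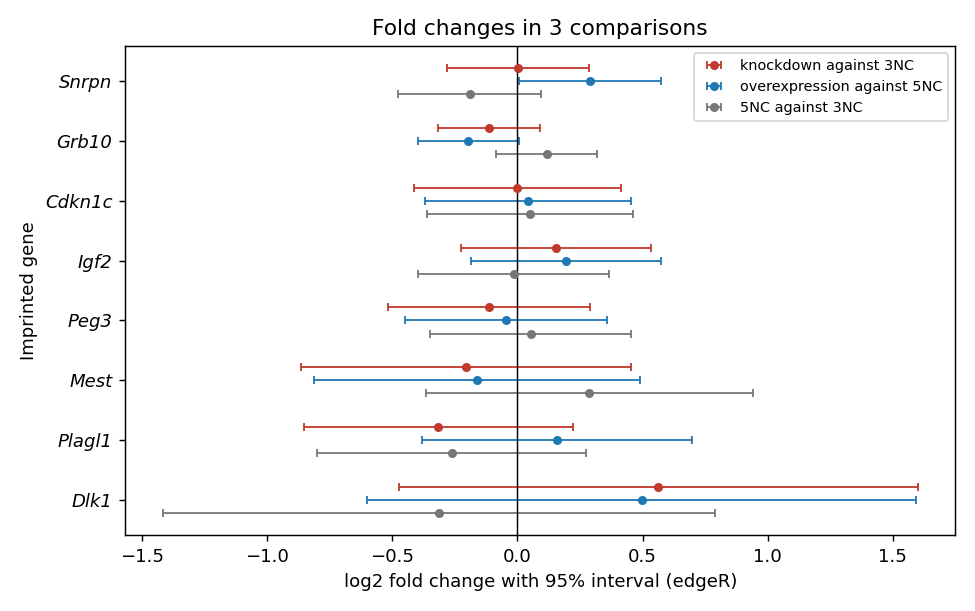
Log2 fold changes of the 8 imprinted genes with 95% intervals from edgeR, in knockdown against 3NC, overexpression against 5NC and 5NC against 3NC. Of the 24 intervals drawn, that of Snrpn in overexpression against 5NC is the one that does not reach 0, and the intervals are narrowest for Grb10 and widest for Dlk1.

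The spread within groups was set against counting error. The chi-square of the reads around the group means, per degree of freedom (about 1 for counting error alone), was between 1.38 (Dlk1) and 3.91 (Peg3), where the median of all genes tested was 5.45. This measure grows with the number of reads, and the median gene had 246 reads per library, against 9.33 for Dlk1 and 157 for Peg3. Grb10, with 467 reads, was at 1.68.

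Correlations between the 8 genes over the 12 libraries were computed for all 28 pairs on log2 CPM. Of these, 16 were positive and 12 negative, and 0 passed after Benjamini-Hochberg adjustment over the pairs, while 4 had an unadjusted permutation p below 0.05 by Pearson's r. Dlk1 and Grb10 had r = -0.67 (permutation p = 0.0178, adjusted p = 0.199) and rho = -0.59 (permutation p = 0.0443, adjusted p = 0.310). Without the 2 libraries farthest from the median of Dlk1, r was -0.76. Peg3 and Mest had r = 0.66 (permutation p = 0.0187, adjusted p = 0.199) and rho = 0.62 (permutation p = 0.0371, adjusted p = 0.310). Without the 2 libraries farthest from the median of Peg3, r was 0.23. Leaving them out also narrows the range of Peg3, so how far the relation rests on them is not settled. Igf2 and Dlk1 had r = 0.65 (permutation p = 0.0213, adjusted p = 0.199) and rho = 0.70 (permutation p = 0.0144, adjusted p = 0.310), with r = 0.51 after the same step on Igf2. Cdkn1c and Snrpn had r = 0.63 (permutation p = 0.0298, adjusted p = 0.208) and rho = 0.63 (permutation p = 0.0317, adjusted p = 0.310), with r = 0.69 after it. Igf2 and Cdkn1c, neighbours on chromosome 7, had r = 0.44 (permutation p = 0.153, adjusted p = 0.574) and rho = 0.31 (permutation p = 0.330, adjusted p = 0.710). These values pool the 4 groups, each of which has too few libraries for a value of its own.

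**Figure D4:**
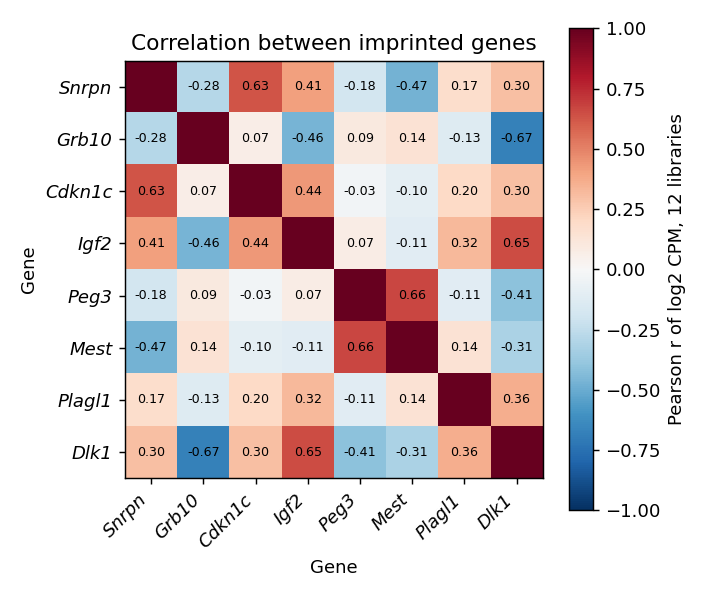
Pearson's r of log2 CPM between the 8 imprinted genes over the 12 libraries, in red where positive and in blue where negative, with the value in each cell. The values run from -0.67 (Dlk1 and Grb10) to 0.66 (Peg3 and Mest), and none passed after adjustment over the 28 pairs.

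For each imprinted gene with a mean of at least 1 CPM, the gene of most similar pattern over the 12 libraries was taken from 11942 genes of at least 5 CPM. The highest r for Snrpn was with Mkl2 (0.96) and for Cdkn1c with Tmigd3 (0.96). Mest was most like Gid8 (0.91), Peg3 most like Mrpl16 (0.91) and Plagl1 most like Trappc3 (0.88). Grb10 was most like Dcaf11 (0.87) and Igf2 most like Tmco3 (0.85). None of these 7 is on the lists of imprinted genes used here. The values are the highest of 11942 with n = 12 and describe these libraries, which share depth and cell makeup.

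Other imprinted genes were counted in the same fit. Of 23 further paternally expressed genes, 19 had a row and 13 were tested, and of 27 further maternally expressed genes, 25 had a row and 17 were tested. None passed in any comparison. In knockdown against 3NC, 10 of the 13 paternally and 10 of the 17 maternally expressed genes had a log2 fold change below 0, with medians of -0.09 in both lists. Of all 16388 genes tested, 8731 were below 0 there, and several of the list genes changed sign with 1 library left out. In overexpression against 5NC the medians were 0.00 and -0.03. The genes of smallest p in each direction among the paternally expressed ones were Rasgrf1, a guanine nucleotide exchange factor (0.36 in knockdown and 0.23 in overexpression), Zrsr1, a splicing factor-related gene (-0.41 in knockdown, adjusted p = 0.764 in edgeR), and Mcts2, a retrogene (-0.31 in overexpression and 0.32 between the controls). Peg10, a retrotransposon-derived gene, was at -0.16 between the controls (0.02 without 3NC replicate 2) and at -0.34 in the interaction, where Usp29, the neighbour of Peg3, was at 0.33. With the library of most weight left out, Rasgrf1 was at 0.18 in knockdown (without knockdown replicate 2) and 0.06 in overexpression (without 5NC replicate 2), and Zrsr1 at -0.23 (without 3NC replicate 2). In overexpression, Mcts2 ranged from -0.48 (without overexpression replicate 3) to -0.20 (without overexpression replicate 1). Between the controls it ranged from 0.19 (without 3NC replicate 2) to 0.51 (without 3NC replicate 3). In the interaction Peg10 was at -0.16 without 3NC replicate 2. Usp29 ranged there from 0.20 (without knockdown replicate 1) to 0.54 (without 3NC replicate 3).

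Among the maternally expressed genes the smallest p was that of Atp10a, a phospholipid flippase, in overexpression against 5NC. It was at 63.8 ± 4.78 CPM in 5NC and at 89.5 ± 8.76 CPM in overexpression (SD, n = 3), a log2 fold change of 0.49 ± 0.14 that did not pass (adjusted p = 0.198, edgeR). Between the controls it was -0.37, and in the interaction -0.22, which were -0.19 and -0.04 without 3NC replicate 3. Slc22a18, a transporter in the same imprinted domain as Cdkn1c, was at 13.1 ± 3.82 CPM in 5NC and at 9.44 ± 0.666 CPM in overexpression, with log2 fold changes of -0.47 in that comparison, 0.54 between the controls and 0.65 in the interaction. Without 5NC replicate 1 these were -0.21, 0.27 and 0.38. Kcnq1, a potassium channel gene of that domain, was at 0.85 (adjusted p = 0.764, edgeR) and Ube3a, a ubiquitin ligase of the domain of Snrpn, at -0.23 in knockdown against 3NC. Kcnq1 was at 0.55 without 3NC replicate 2 and Ube3a at -0.12 without 3NC replicate 3.

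Of the 18 genes of the IGF axis, which holds the receptors and binding proteins of Igf2, 17 were tested and 0 passed. Igfbp2, a binding protein, was at 16.5 ± 3.61 CPM in 5NC and at 8.20 ± 1.89 CPM in overexpression, a log2 fold change of -1.01 ± 0.30 (adjusted p = 0.203, edgeR), and it differed by 0.90 between the controls. Igfbp5, another binding protein, was at 1.27 ± 0.424 CPM in 5NC and 4.01 ± 3.33 CPM in overexpression, with log2 fold changes of 1.63 in that comparison, -0.99 in knockdown against 3NC, -1.23 between the controls and -2.62 in the interaction (adjusted p = 0.888, edgeR). Without overexpression replicate 3, the Igfbp5 values were 0.71 in overexpression against 5NC and -1.69 in the interaction, and without 3NC replicate 2 they were -0.50 in knockdown and -0.74 between the controls. Igfals, a carrier subunit, was at 0.82 in knockdown (0.47 without 3NC replicate 2), and Igf1r, the receptor, was at 0.35 in the interaction. Igf2 itself did not share the sizes of Igfbp2 and Igfbp5, at 0.19 in overexpression against 5NC.

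Of 17 genes that set, keep or erase imprints, 16 were tested and 0 passed. Dnmt3b, a DNA methyltransferase, was at 9.60 ± 1.09 CPM in 5NC and at 7.44 ± 0.365 CPM in overexpression, with log2 fold changes of -0.37 in that comparison, 0.44 between the controls (adjusted p = 0.300, edgeR) and 0.30 in the interaction (0.20 without 5NC replicate 1). Dnmt3l, the cofactor of the methyltransferases, was at 0.45 in overexpression (0.26 without overexpression replicate 2), and Dnmt3a at -0.15 between the controls (-0.09 without 3NC replicate 2). In the knockdown comparison Zfp57 was at 0.18 (0.12 without 3NC replicate 2) and Hells, a chromatin remodeller, at -0.42. Tet1, a methylcytosine dioxygenase, was at -1.12 in the interaction, and at -0.17 there without overexpression replicate 3.

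**Figure D5:**
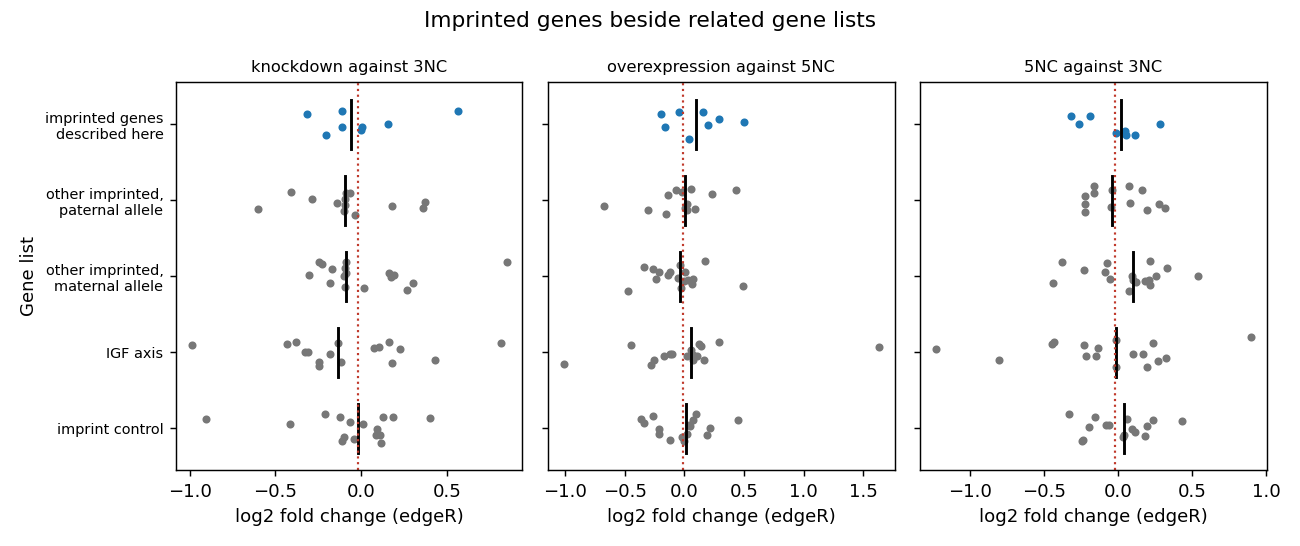
Log2 fold changes (edgeR) of the imprinted genes described here (8, blue) beside those of other paternally (13) and maternally (17) expressed imprinted genes, the IGF axis (17) and genes of imprint control (16), in 3 comparisons. Black bars mark the list medians, the dotted line marks the median of all genes tested, and no point of any list passed an adjusted p of 0.05.

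Marker genes of cell types were summed in the same libraries. The summed CPM of 6 round spermatid genes was 777 to 846 in 5NC and 929 to 1092 in overexpression, without overlap. Of all genes tested, taken singly, 21.3% did not overlap in that comparison. Of the 6, 4 had an unadjusted p below 0.05 in edgeR, all higher, against 11.9% of all genes, while 0 passed. In 5NC against 3NC all 6 had a log2 fold change below 0, 4 of them with an unadjusted p below 0.05, against 10.8% of all genes, and 0 passed. Of the 87 genes of the cell type lists that were tested, 1 passed in overexpression against 5NC, against 0.311% of all genes. It was Spo11, the enzyme that makes the DNA breaks of meiosis, named here after its values were seen. It was at 61.7 ± 4.66 CPM in 5NC and at 43.3 ± 3.72 CPM in overexpression (SD, n = 3), without overlap, against 21.3% of all genes. The log2 fold change was -0.51 ± 0.09 (adjusted p = 0.0452, edgeR), and Spo11 passed the test of any difference (adjusted p = 0.0437, edgeR). Between the controls Spo11 differed by 0.46 on the log2 scale, with 5NC above 3NC without overlap, against 13% of all genes. With each library left out in turn, the first call held in 3 of 12 fits, with adjusted p up to 0.253. The summed CPM of the 6 spermatocyte genes, Spo11 among them, overlapped, at 1244 to 1770 in 5NC and 1329 to 1655 in overexpression, and 4 of the 6 were lower and 2 higher. In overexpression against 5NC, Snrpn (log2 fold change 0.29, adjusted p = 0.412) and Grb10 (-0.20, adjusted p = 0.434) did not pass in edgeR. The summed CPM of 10 Leydig cell genes was 1144 to 2204 in 3NC and 1186 to 1545 in knockdown, with 4 of the 10 at an unadjusted p below 0.05, all lower, against 5.64% of all genes, and 0 passed. In the same comparison all 7 fibroblast genes had a log2 fold change below 0, with 3 of the 7 at an unadjusted p below 0.05 and 0 passed, and their summed CPM was 277, 838 and 173 in 3NC replicates 1 to 3 and 293, 159 and 163 in knockdown. The high value is that of 3NC replicate 2, and the other 5 values lie between 159 and 293. The part of cell makeup in the levels of the imprinted genes was not tested.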

How the data were processed

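RNA-seq of 12 testis libraries was analysed in 4 groups of 3, taken from the sample titles. Per the methods, messenger RNA was enriched with oligo(dT) beads (the labels name total RNA) and the authors mapped reads to reference genes with SOAPaligner 2.20; the labels name mm10. Estimated counts of each gene were deposited without normalisation, with fractions in 17.3% of genes. It also holds FPKM computed by the authors, which were used for levels between genes. A further 18 per-sample columns of other groups were not used. The sources used here do not state how reads were shared among genes.

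Estimated counts were rounded and filtered with filterByExpr (16388 of 20788 genes kept). All 12 libraries entered 1 fit in edgeR 4.0.16 (R 4.3.3) with TMM scaling, 1 coefficient per group and the quasi-likelihood test, and p-values were adjusted by Benjamini-Hochberg over all genes tested and called below 0.05. The dispersion gave a biological coefficient of variation of 22.9%. SE were derived from the F statistic and intervals are 95%. Log2 CPM for correlations used a prior count of 2, and their p-values used 100000 permutations in scipy 1.17.1. The depth of 12719699 to 15771655 reads gives few reads for Dlk1 and Mest. The fit was tested on simulated data.

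The genes and lists were chosen with earlier results of these data known. Named genes were the 10 imprinted genes; of the related lists, any gene that passed and, per list and comparison, the gene of smallest p in each direction; and, per imprinted gene of at least 1 CPM, the gene of highest r. Alternatives were RLE size factors, no filter, a replicate block, DESeq2 1.42.0, limma 3.58.1 on log2(FPKM + 0.1) or log2(FPKM + 1) (genes reaching 0.5 FPKM in 3 libraries), leaving out each library, and leaving out both libraries high in Ptprc.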

Additional observations from a re-analysis of the deposited data

How the results depend on the processing

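Under 456 refits of an imprinted gene's fold change (8 genes in knockdown against 3NC, overexpression against 5NC and 5NC against 3NC under 19 alternatives), 412 kept their direction, 44 had the opposite sign and 0 of the 8 genes passed. None passed in the interaction under the 19 alternatives either, nor in the test of any difference, which was not run in DESeq2. All sign changes were in differences that did not pass. In knockdown against 3NC, Snrpn was at -0.00309 with RLE size factors, -0.00273 with DESeq2, -0.0130 and -0.0124 on log2(FPKM + 0.1) and log2(FPKM + 1), and -0.0299 with both libraries high in Ptprc left out. Cdkn1c was at -0.00316, -0.00328, -0.0200 and -0.0171 in the first 4 of these, and with both libraries left out Plagl1 was at 0.00572 and Mest at 0.20. In overexpression against 5NC, Cdkn1c was at -0.00932 and -0.00836 on the FPKM scales. In 5NC against 3NC, Igf2 was at 0.0245 and 0.0169 on the FPKM scales, and with both libraries left out Cdkn1c was at -0.0320 and Peg3 at -0.0113.

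With single libraries left out, the knockdown difference ranged from -0.37 to 0.00475 for Mest, -0.0662 to 0.14 for Snrpn, -0.11 to 0.17 for Cdkn1c and -0.18 to 0.0111 for Peg3. The overexpression difference ranged from -0.0634 to 0.13 for Cdkn1c and -0.18 to 0.14 for Peg3, and that of 5NC against 3NC from -0.10 to 0.0251 for Igf2, -0.0474 to 0.22 for Cdkn1c and -0.14 to 0.18 for Peg3. Dlk1 ranged from 0.20 to 0.78 in knockdown and from 0.23 to 0.87 in overexpression. The Snrpn difference of overexpression against 5NC stayed between 0.23 and 0.33, and that of Grb10 between -0.20 and -0.18. The same differences ranged from 0.07 to 0.36 for Igf2, -0.34 to -0.04 for Mest and 0.05 to 0.28 for Plagl1. In knockdown against 3NC the ranges were 0.09 to 0.26 for Igf2, -0.16 to -0.03 for Grb10 and -0.51 to -0.07 for Plagl1.

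The counts over all genes depended more on the settings, and the causes were not tested. DESeq2 called 16 genes in knockdown against 3NC, 313 in overexpression against 5NC, 166 in 5NC against 3NC and 42 in the interaction, where edgeR called 0, 51, 21 and 4. On log2(FPKM + 0.1), 82 genes were called in overexpression against 5NC. With both libraries high in Ptprc left out, 159 were called there, 45 in 5NC against 3NC and 67 in the test of any difference (39 with all libraries). Leaving out 1 library gave 0 to 12, 9 to 87, 3 to 35 and 2 to 10 calls in the order above and 6 to 81 for any difference. The highest knockdown and overexpression counts came without 3NC replicate 3. The replicate block called 21, 5 and 2 genes in overexpression against 5NC, 5NC against 3NC and the interaction and 7 for any difference. Deviations of same-numbered libraries from their group means correlated at -0.52, -0.64 and 0.39 in the LV3 pair. In the LV5 pair these values were 0.19, -0.12 and 0.15. With 3 libraries per group they cannot settle whether same-numbered libraries are paired.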
